A study of Gallus gallus with 8 samples.

Results

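The cytosolic ribosomal protein genes are the rows of the chick count table whose gene name is RPL, RPS or RPLP followed by a number and, where present, a short suffix. They numbered 70 of 24356 genes, and all 70 passed the filter on low counts. They comprised 25 genes of the small (40S) subunit, 37 genes of the large (60S) subunit, the 3 stalk genes RPLP0, RPLP1 and RPLP2, and 5 genes named as paralogs of another member, RPL3L, RPL7L1, RPL22L1, RPL26L1 and RPS27L. The rule uses gene names and no measured value, although it was set with earlier results of these data known. RPSAP58, which the RefSeq gene table pairs with the name RPSA, as well as RPL36AL and the fusion gene FAU fall outside this naming rule and are described separately.

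Chick (Gallus gallus) embryos received, by electroporation in the egg at ss3-5, a reporter in which an enhancer drives EGFP, either the otic enhancer Lmx1aE1 or the epibranchial enhancer Sox3U3. EGFP+ cells were isolated by FACS at ss18-21, and each bulk RNAseq library was made from 2000 cells. The study's results describe dissection of the ear region before sorting, whereas its methods name whole heads. Its methods also give a slightly wider range of stages for the electroporation. The data hold 4 libraries of Lmx1aE1-EGFP+ otic cells and 4 of Sox3U3-EGFP+ epibranchial cells. Both groups carried an EGFP plasmid, no unelectroporated group was included, and each cell population is defined by the activity of its enhancer at the time of sorting. The study compared the groups to define the expression profiles of otic and epibranchial cells.

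Cytosolic ribosomal proteins assemble with ribosomal RNA in the nucleolus and form the ribosomes that translate nuclear mRNAs. Their mRNAs are among the most abundant of growing cells. They begin with a terminal oligopyrimidine (TOP) tract, through which mTOR signalling and the RNA-binding protein LARP1 control their translation, and MYC proteins promote their transcription. In humans, reduced dosage of many single ribosomal proteins causes Diamond-Blackfan anaemia, and in mice loss of single members such as Rpl38 alters the patterning of the embryo.

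Library totals ranged from 6559872 to 45183366 counts, with 2 libraries of each group above and 2 below 15000000. No pair of libraries agreed within sampling noise (lowest chi-square per degree of freedom 3.60 over 28 pairs). The labelled populations were checked against lists of markers. Of 10 otic markers tested 4 were higher in Lmx1aE1-EGFP+ cells (SOX10, SOX8, LMX1A and DLX5) and 2 were lower (PAX2 and JAG1), and all 5 tested of 10 listed epibranchial markers were higher in Sox3U3-EGFP+ cells. The reporter enhancers are named after LMX1A and SOX3, so these markers are not an independent check of the sort. KRT18 was listed both as an epibranchial and as an epidermal marker. Markers of other cell types also moved with the groups. Summed over the list, 9 neural crest markers had 750 to 839 CPM (counts scaled to the TMM-adjusted library total) in Lmx1aE1-EGFP+ libraries against 242 to 326 CPM in Sox3U3-EGFP+ libraries, and 10 epidermal markers had 754 to 1112 CPM against 3889 to 5007 CPM. Of these, 6 neural crest markers were higher and 1 lower, and 9 epidermal markers were lower, in Lmx1aE1-EGFP+ cells. The part of this difference in cell makeup in the ribosomal protein values was not tested, and in bulk libraries a different mixture of cells cannot be told apart from a different amount of mRNA per cell.

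Ribosomal protein genes took a larger share of the counts in otic than in epibranchial cells. The share was 8.05%, 7.45%, 7.30% and 6.62% in Lmx1aE1-EGFP+ libraries 1 to 4. It was 6.14%, 5.07%, 6.69% and 5.71% in Sox3U3-EGFP+ libraries 1 to 4. The groups overlapped by 1 library, since Sox3U3-EGFP+ library 3 exceeded Lmx1aE1-EGFP+ library 4. The mean was 7.35% ± 0.588 (SD, n = 4) against 5.90% ± 0.683 (SD, n = 4), a ratio of 1.25, and the difference of 1.45 percentage points exceeded the SD of either group. The widest 95% Wilson interval of a single library was 0.0402 percentage points, which covers counting error only. The mean share was 6.96% against 5.60% in the deeper libraries and 7.75% against 6.20% in the shallower ones, so that the difference was present at both depths. As a sum over members, the share was given no test.

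**Figure D1:**
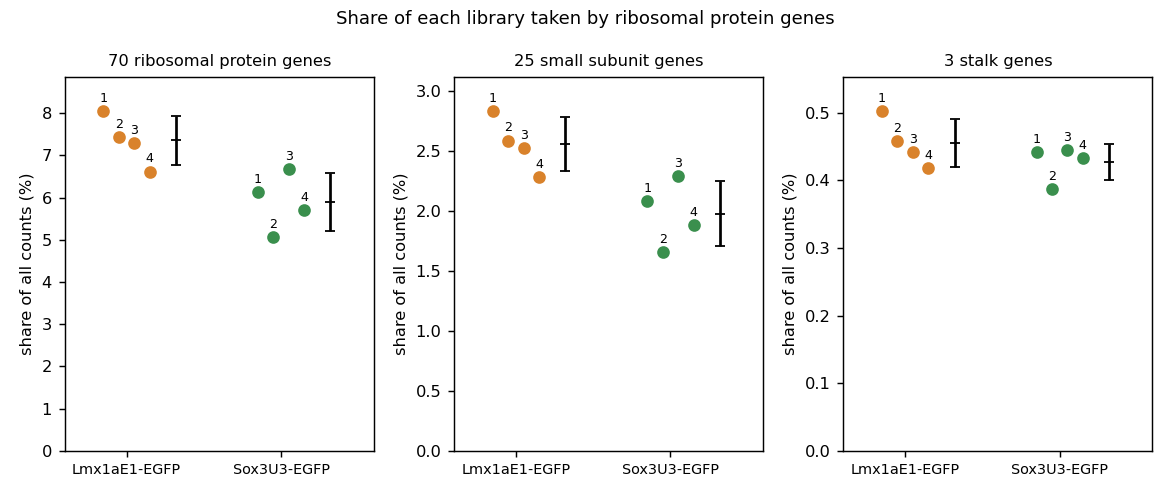
Share of all counts (%, axes from 0) taken by all 70 ribosomal protein genes, by the 25 small subunit genes and by the 3 stalk genes in each library (points, numbered by replicate), with the group mean ± SD (bars, n = 4). The share of all 70 genes lies between 6.62% and 8.05% in Lmx1aE1-EGFP+ libraries and between 5.07% and 6.69% in Sox3U3-EGFP+ libraries, whereas the stalk genes differ little.

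The share was also summed for each part of the ribosome, with no test between the parts. Small subunit genes took 2.55% ± 0.225 of the counts in Lmx1aE1-EGFP+ and 1.98% ± 0.272 in Sox3U3-EGFP+ libraries (SD, n = 4 each), a ratio of 1.29. Large subunit genes took 4.13% ± 0.309 and 3.32% ± 0.365, a ratio of 1.24. The 3 stalk genes, whose proteins form the lateral stalk that recruits elongation factors, took 0.455% ± 0.0356 and 0.427% ± 0.0267, a ratio of 1.07. This difference of 0.0284 percentage points was within the SD of the Lmx1aE1-EGFP+ libraries and slightly above that of the Sox3U3-EGFP+ libraries. For comparison, the summed share of the 13 protein genes of the mitochondrial genome was 4.89% ± 0.303 in Lmx1aE1-EGFP+ and 5.86% ± 0.880 in Sox3U3-EGFP+ libraries. The groups overlapped in this share, the highest value being 7.03% in Sox3U3-EGFP+ library 4, and the log2 fold changes of the 13 genes had a median of -0.005. With these 13 genes left out of the totals the ribosomal protein share was 7.73% ± 0.640 against 6.27% ± 0.741.

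Gene by gene, 53 of the 70 ribosomal protein genes were higher in otic cells with an adjusted p below 0.05 in the quasi-likelihood test of edgeR (Benjamini-Hochberg method, 16861 genes), which is 75.7% of the members beside 12.1% of all genes tested. All genes tested were not matched to the members in level. The members also varied together between libraries, as described below, so that their calls are not independent of each other. None of the 70 was higher in epibranchial cells in edgeR, at an adjusted or an unadjusted p under 0.05, nor in DESeq2 or limma-voom, beside 11.3% of all genes tested. The changes were small and in 1 direction. The log2 fold change, Lmx1aE1-EGFP over Sox3U3-EGFP, was positive in 68 members and had a median of 0.43 (1.35-fold) and quartiles of 0.33 and 0.57, whereas the median over all tested genes was -0.04. No member passed the log2 fold change of 1.5 that the study used as its threshold. Of all 16861 genes tested, 120 passed it with an adjusted p below 0.05 higher in otic and 416 higher in epibranchial cells. Such genes were rare throughout, so their absence among the members is not particular to them. In 45 members (64.3%) every Lmx1aE1-EGFP+ library lay above every Sox3U3-EGFP+ library, beside 13.7% of all genes tested, and the groups overlapped in the other 25. The same 53 members were not all called when a library was left out. The count of calls then ranged from 38 without Lmx1aE1-EGFP+ library 1 (beside 8.59% of all genes in that comparison) to 58 without Sox3U3-EGFP+ library 3 (beside 10.7%), and 38 members were called in the comparison of all libraries and in each of the 8 comparisons without 1 library. Within the 4 shallower libraries alone 30 members were called, beside 7.28% of all genes, and within the 4 deeper ones 36, beside 6.92%, and 26 members were called in both and in all libraries.

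**Figure D2:**
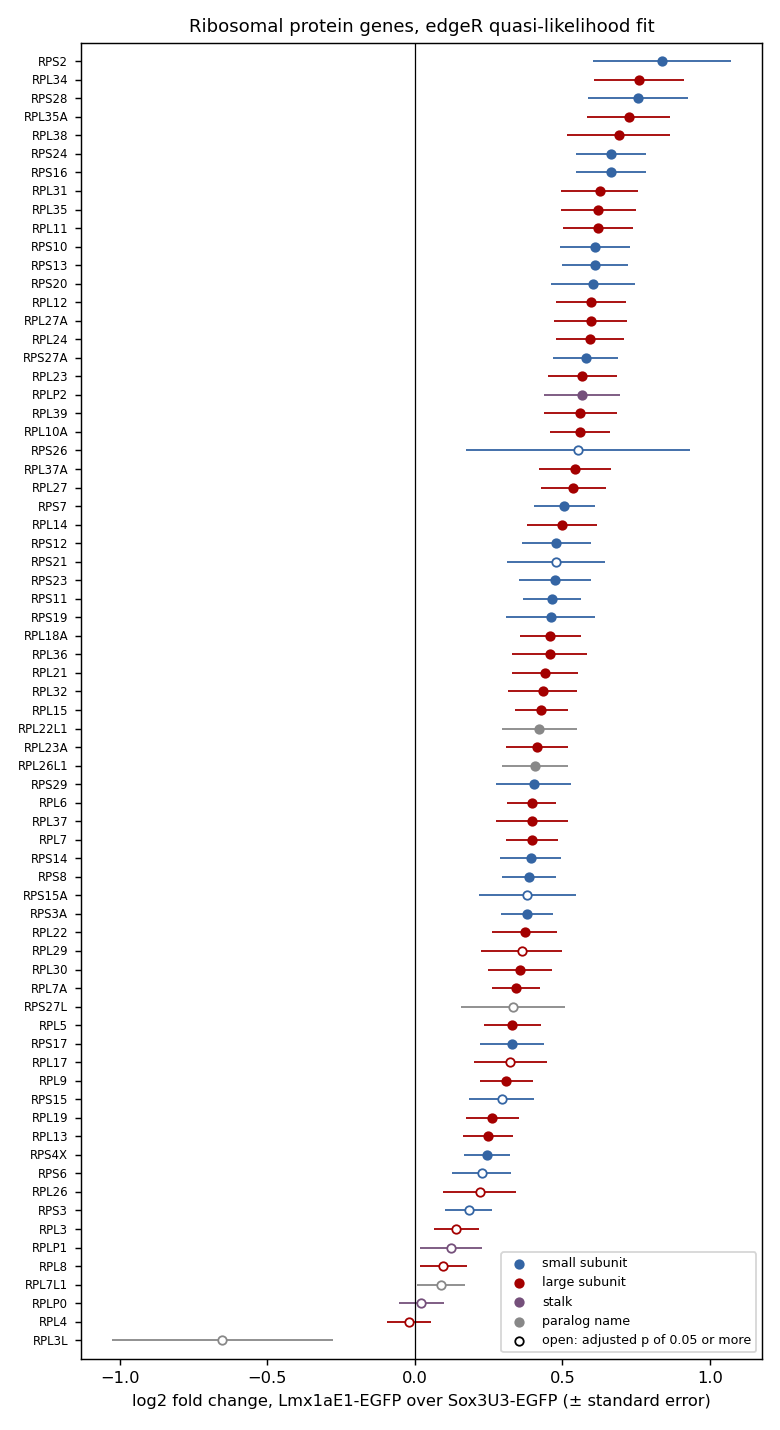
Log2 fold change (Lmx1aE1-EGFP over Sox3U3-EGFP, ± standard error from edgeR, 4 libraries per group) of each of the 70 ribosomal protein genes in order of size, coloured by part of the ribosome; filled points have an adjusted p under 0.05. The values run from -0.65 for RPL3L to 0.84 for RPS2, and the open points gather at the lower end.

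By number of calls, 19 of 25 small subunit genes and 31 of 37 large subunit genes were higher in otic cells, and the medians of their log2 fold changes were 0.48 and 0.43. The largest difference in the small subunit was that of RPS2 (ENSGALG00000005490), a protein at the channel through which mRNA enters the ribosome. It had 957, 753, 789 and 744 CPM in Lmx1aE1-EGFP+ libraries 1 to 4 and 607, 442, 507 and 257 CPM in Sox3U3-EGFP+ libraries 1 to 4. The groups did not overlap, and Sox3U3-EGFP+ library 4 was the lowest. The log2 fold change was 0.84, with a standard error (SE) of 0.24 (edgeR adjusted p = 0.0341). This call was lost when any 1 of 6 libraries was left out (adjusted p up to 0.0987 without Sox3U3-EGFP+ library 2), although the log2 fold change stayed between 0.65 and 1.01.

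RPS28 (ENSGALG00000049538) and RPS24 (ENSGALG00000004871) are small subunit proteins that are mutated in human Diamond-Blackfan anaemia. RPS28 had 439, 362, 379 and 311 CPM in Lmx1aE1-EGFP+ libraries and 264, 185, 274 and 159 CPM in Sox3U3-EGFP+ libraries. RPS24 had 763, 678, 656 and 564 CPM in Lmx1aE1-EGFP+ libraries and 420, 348, 520 and 390 CPM in Sox3U3-EGFP+ libraries. Neither gene overlapped between the groups. Their log2 fold changes were 0.76 (SE 0.17, adjusted p = 0.00686) and 0.66 (SE 0.12, adjusted p = 0.000792) in the edgeR test. Of the 18 human Diamond-Blackfan anaemia genes on the list, 16 were in the table, all of them members. Of these, 14 were higher in otic cells, with a median log2 fold change of 0.55. This stands beside 53 of all 70 members (75.7%, median 0.43) and 12.1% of all genes tested. The exceptions were the rows named RPL26 (log2 fold change 0.22, adjusted p = 0.220) and RPS26 (0.55, adjusted p = 0.320 in edgeR). The row named RPL26 held 55.4 to 82.7 CPM. The row RPL26L1, for which the RefSeq table gives RPL26 as another name, held 760 to 1411 CPM and was higher in otic cells. Which of these rows stands for the human gene RPL26 was not tested. The row named RPS26 held at most 2.65 CPM in any library, and its standard error of 0.38 was the largest of all members.

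In the large subunit the leading genes were RPL34, RPL35A and RPL38. RPL34 (ENSGALG00000032002) had 553, 496, 488 and 391 CPM in Lmx1aE1-EGFP+ libraries and 299, 217, 373 and 249 CPM in Sox3U3-EGFP+ libraries (log2 fold change 0.76, SE 0.15, edgeR adjusted p = 0.00289). RPL35A (ENSGALG00000007611), another Diamond-Blackfan anaemia gene, had 699, 666, 616 and 550 CPM against 395, 280, 494 and 362 CPM (0.73, SE 0.14, edgeR adjusted p = 0.00192). The libraries of the groups were separate for both genes, with Sox3U3-EGFP+ library 3 nearest to the otic libraries and Sox3U3-EGFP+ library 2 farthest from them. RPL38 (ENSGALG00000001465), whose loss in mice gives the tail-short phenotype, had 907, 797, 728 and 611 CPM in Lmx1aE1-EGFP+ libraries and 460, 337, 628 and 460 CPM in Sox3U3-EGFP+ libraries. For RPL38 the groups overlapped, because Sox3U3-EGFP+ library 3 exceeded Lmx1aE1-EGFP+ library 4, and the log2 fold change was 0.69 (SE 0.17, edgeR adjusted p = 0.0152).

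RPL5 and RPL11 join 5S ribosomal RNA in a particle that is built into the large subunit and that, when free, binds and inhibits MDM2. RPL11 (ENSGALG00000030378) was higher in otic cells, at 737 ± 90.1 CPM against 479 ± 80.5 CPM (SD, n = 4 each). The log2 fold change was 0.62 (SE 0.12, edgeR adjusted p = 0.00120) with separate groups. RPL5 (ENSGALG00000005922) had a smaller log2 fold change of 0.33 (SE 0.10, edgeR adjusted p = 0.0202), and its groups overlapped. The RPL5 call was lost within either depth class (adjusted p = 0.0671 in edgeR for the deeper and 0.158 for the shallower libraries) and when any 1 of 4 libraries was left out, while that of RPL11 was kept without each library. MDM2 itself had a log2 fold change of -0.35 and was not called (edgeR adjusted p = 0.0716).

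The other 17 members did not pass the test in either direction. RPL4 (ENSGALG00000007711), which lines the exit tunnel of the nascent chain, had 3351, 3380, 3401 and 3759 CPM in Lmx1aE1-EGFP+ libraries and 3533, 3693, 3363 and 3496 CPM in Sox3U3-EGFP+ libraries. The libraries of the groups were interleaved, and the log2 fold change was -0.02 (SE 0.08, edgeR adjusted p = 0.877); its sign changed when any 1 of 3 libraries was left out and with the members left out of the scaling. RPL3 and RPL8, which lie close to the peptidyl transferase centre, had log2 fold changes of 0.14 (edgeR adjusted p = 0.207) and 0.10 (edgeR adjusted p = 0.416). In both genes all otic libraries lay above all epibranchial ones, by a margin too small to pass the test.

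Of the 3 stalk genes only RPLP2 was called higher in otic cells. RPLP0 (ENSGALG00000023294), the base on which the P1 and P2 proteins sit, had 2469, 2179, 2216 and 2248 CPM in Lmx1aE1-EGFP+ and 2292, 2322, 2155 and 2208 CPM in Sox3U3-EGFP+ libraries. Its log2 fold change was 0.02 (SE 0.08, edgeR adjusted p = 0.869), with interleaved libraries and a sign that changed with library size as the only scaling. RPLP1 had a log2 fold change of 0.12 (SE 0.11, edgeR adjusted p = 0.440). RPLP2 (ENSGALG00000034811) had 1023, 910, 845 and 772 CPM against 607, 457, 743 and 591 CPM, with all otic libraries above all epibranchial ones, and a log2 fold change of 0.57 (SE 0.13, edgeR adjusted p = 0.00466). The differences between the stalk genes were not tested directly.

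Of the 5 paralog-named members, RPL22L1 and RPL26L1 were higher in otic cells and the other 3 did not pass the test. RPL22L1 (ENSGALG00000009312), a paralog of RPL22, had a log2 fold change of 0.42 (SE 0.13, edgeR adjusted p = 0.0250), a call that was lost without any 1 of 5 libraries. Beside it, RPL22 had a log2 fold change of 0.37 (SE 0.11), and the ratio of the RPL22L1 to the RPL22 value was 0.822 ± 0.0548 in Lmx1aE1-EGFP+ and 0.797 ± 0.0528 in Sox3U3-EGFP+ libraries (SD, n = 4 each), within the spread between libraries. RPL26L1 had a log2 fold change of 0.41 (edgeR adjusted p = 0.0145), lost without Lmx1aE1-EGFP+ library 1 (adjusted p = 0.0532) and within either depth class. The RefSeq table gives RPL26 as another name of RPL26L1. How the reads of near-identical copies were shared between such rows is not given in the sources used here, so that values of single paralogs are uncertain.

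RPL7L1, which acts in the nucleolus on precursors of ribosomal RNA, had a log2 fold change of 0.09 (edgeR adjusted p = 0.476), whereas RPL7 had 0.40 (SE 0.09, edgeR adjusted p = 0.00356). The ratio of the RPL7L1 to the RPL7 value was 0.300, 0.322, 0.333 and 0.355 in Lmx1aE1-EGFP+ libraries and 0.374, 0.436, 0.388 and 0.427 in Sox3U3-EGFP+ libraries. This ratio was lower in all otic libraries than in any epibranchial library. RPS27L, a target of p53 in human cells, had a log2 fold change of 0.33 (edgeR adjusted p = 0.191). RPL3L, a form of RPL3 found in heart and skeletal muscle, was measured at 1.18, 2.12, 1.20 and 1.13 CPM in Lmx1aE1-EGFP+ and 2.35, 2.32, 2.31 and 1.51 CPM in Sox3U3-EGFP+ libraries. The groups overlapped, and its log2 fold change of -0.65 (SE 0.38, edgeR adjusted p = 0.230) rests on few reads. Of 8 heart muscle markers tested, 3 were higher in Sox3U3-EGFP+ cells, with a summed 46.5 to 74.5 CPM in otic and 69.5 to 234 CPM in epibranchial libraries, and their part in the RPL3L value was not tested.

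The 3 genes RPSAP58, RPL36AL and FAU, which fall outside the naming rule, moved in the same direction. RPSAP58 had a log2 fold change of 0.27 (SE 0.08, edgeR adjusted p = 0.0262) and RPL36AL one of 0.48 (SE 0.13, edgeR adjusted p = 0.0181). FAU, which encodes a ubiquitin-like protein fused to RPS30, had 0.34 (SE 0.10, edgeR adjusted p = 0.0200). The FAU call was lost without any 1 of 3 libraries. RPS27A, a member made as a fusion with ubiquitin, had a log2 fold change of 0.58 (SE 0.11, edgeR adjusted p = 0.00116).

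The members varied together from library to library, also within each group. For each gene the log2 CPM of each library was taken as a deviation from its group mean, and these deviations were correlated between genes over the 8 libraries. The median Pearson correlation over 2415 pairs of members was 0.853 (quartiles 0.537 and 0.944), and 92.3% of pairs were above 0, beside a median of -0.002 over pairs of all tested genes. This is a description: the points are 8 libraries that share their scaling and depth, and no p-value was given. A single principal component took 89.2% of the variance of the members over the libraries and 75.7% of that within groups.

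The shared movement separated single libraries as well as groups. Of the 70 members, 67 lay above their own group mean in Lmx1aE1-EGFP+ library 1, 33 in library 2, 16 in library 3 and 9 in library 4. Among the Sox3U3-EGFP+ libraries, 64 members lay above the group mean in library 1, 5 in library 2, 67 in library 3 and 16 in library 4. Over all tested genes this share stayed between 48.6% and 52.2% in each library. The median deviation of the members from their 8-library mean was 0.38, 0.24, 0.19 and 0.10 (log2) in Lmx1aE1-EGFP+ libraries 1 to 4 and -0.16, -0.51, 0.02 and -0.30 in Sox3U3-EGFP+ libraries 1 to 4. Sox3U3-EGFP+ libraries 2 and 3, which carry the same reporter, thus lay 0.53 apart in this median, more than the median difference of 0.43 between the groups. The within-group SD of single members had a median of 0.20 (log2), beside 0.32 over all tested genes, which were not matched to the members in level.

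**Figure D3:**
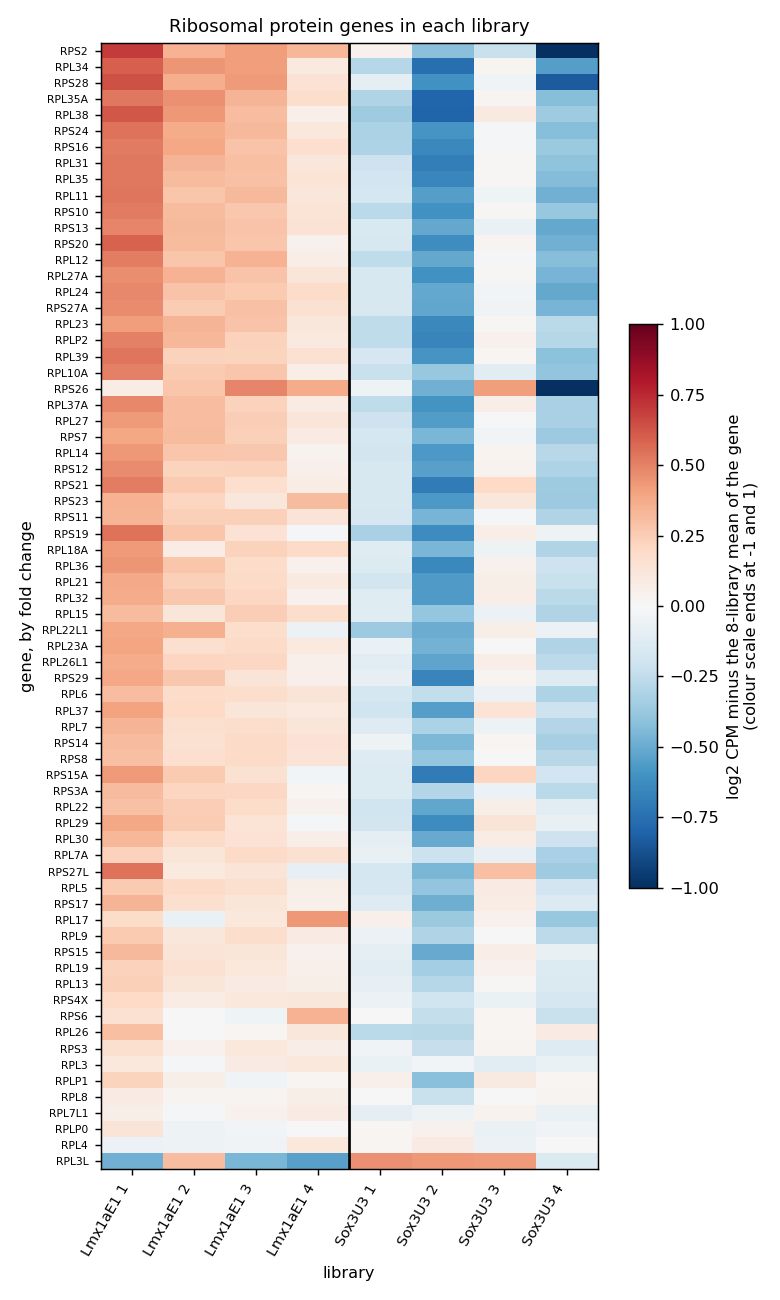
Deviation of each ribosomal protein gene (rows, in order of log2 fold change) from its own mean over 8 libraries, in log2 CPM, in the 4 Lmx1aE1-EGFP+ and 4 Sox3U3-EGFP+ libraries (columns); the colour scale ends at -1 and 1. Most rows share 1 pattern, highest in Lmx1aE1-EGFP+ library 1 and lowest in Sox3U3-EGFP+ library 2, while RPL3, RPL4, RPLP0 and RPL3L at the bottom lack it.

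The 5 members that followed this shared movement least were not called in either direction. Their median correlation with the other members was -0.76 for RPL4, -0.39 for RPL3, -0.03 for RPLP0, 0.10 for RPL3L and 0.32 for RPL7L1. Across the 68 members with a mean above 10 CPM, the log2 fold change rose with the within-group SD (Spearman's rho 0.655 across genes, which are not independent replicates). The members that differed most between the groups therefore also varied most between libraries of 1 group.

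The number in a ribosomal protein's name was given in order of migration on gels, so that proteins of low number are mostly the larger ones. In large subunit genes numbered 1 to 10 the log2 fold change had a median of 0.33 and 6 of 9 were called, whereas those numbered 30 and above had a median of 0.56 and 11 of 11 were called. The bins between, 11 to 20 and 21 to 29, both had a median of 0.44, with 7 of 8 and 7 of 9 called. In the small subunit the medians were 0.38 (6 of 8 called), 0.46 (8 of 10) and 0.55 (5 of 7) for numbers 1 to 10, 11 to 20 and 21 to 29. Genes numbered 1 to 10 were not uniformly low, since RPS2 had 0.84, RPS10 had 0.61 and RPL10A had 0.56. Spearman's rho between number and log2 fold change was 0.553 over 37 large subunit genes and 0.351 over 25 small subunit genes, given without a test. Single libraries differed in this respect. In Sox3U3-EGFP+ library 2 the median deviation from the 8-library mean was -0.25 for large subunit genes numbered 1 to 10 and -0.65 for those numbered 30 and above, and in Lmx1aE1-EGFP+ library 1 the values were 0.26 and 0.52. In Lmx1aE1-EGFP+ library 4 they were 0.10 and 0.09, with no such order. Transcript lengths were not used here.

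**Figure D4:**
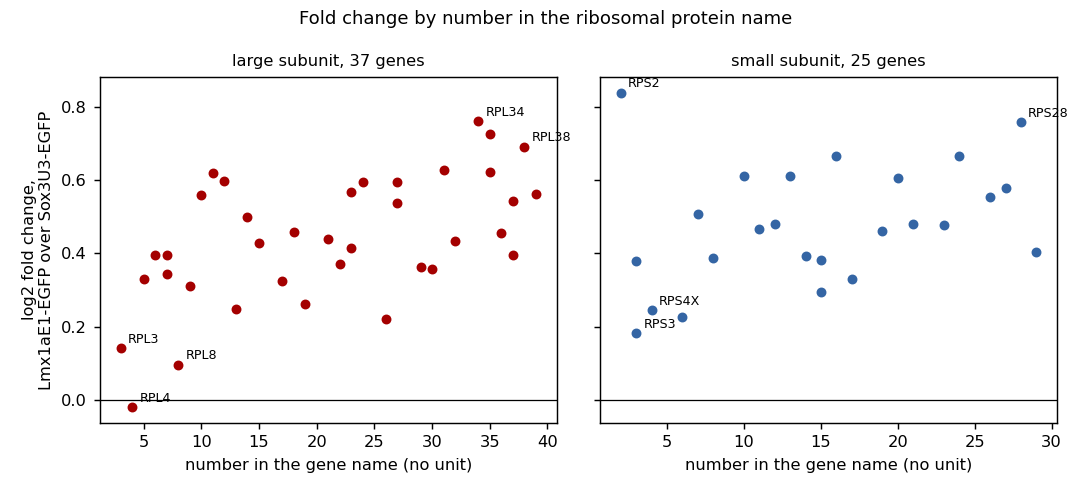
Log2 fold change (Lmx1aE1-EGFP over Sox3U3-EGFP) of 37 large subunit genes and 25 small subunit genes against the number in the gene name; each point is 1 gene. In the large subunit RPL3, RPL4 and RPL8 lie lowest and RPL34 highest, and in the small subunit RPS2 stands above the other low numbers.

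To compare members with each other rather than with all mRNAs, the library scale was set to the summed counts of the 70 genes. On this scale 4 members were higher in otic cells, beside 2.94% of all genes tested, and 2 were lower, beside 27.9% of all genes tested. The p-values were adjusted over all 16861 genes, most of which this scale shifts downwards, and not over the 70 members alone. These calls therefore depend on genes outside the family, and a test among the members only was not run. The 4 were RPS2 (log2 fold change 0.47, adjusted p = 0.0494), RPL34 (0.40, adjusted p = 0.0299), RPS28 (0.40, adjusted p = 0.0475) and RPL35A (0.37, adjusted p = 0.0368 in edgeR). The 2 were RPL4 (-0.40, adjusted p = 0.0220) and RPLP0 (-0.36, adjusted p = 0.0283 in edgeR). On this scale the median of all tested genes moved to -0.42 and that of the members to 0.07.

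RPL17, RPL37, RPS6 and RPS23 lie on chromosome Z by the RefSeq annotation of GRCg7b. Relative to the family median of each library, RPS6, the target of the S6 kinases, stood at -0.23, -0.25 and -0.23 (log2) in Lmx1aE1-EGFP+ libraries 1 to 3 and at 0.25 in library 4. RPL17 stood at -0.20, -0.31 and -0.09 in these libraries and at 0.34 in library 4. RPS23 showed the same contrast (0.22 in library 4, between -0.08 and -0.03 in the others), and RPL37 did not (-0.00 in library 4). Over the 514 tested genes matched to chromosome Z, the median deviation from the 8-library mean was 0.19 in Lmx1aE1-EGFP+ library 4 and between -0.13 and -0.09 in the other 3, and its part in the values of these members was not tested. RPL17 and RPS6 were not called with all libraries (edgeR adjusted p = 0.0694 and 0.112) or without Lmx1aE1-EGFP+ library 4 (0.193 and 0.285), and RPL37 and RPS23 were called in both comparisons.

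Other genes of the translation machinery were compared from lists. Mitochondrial ribosomal proteins, encoded in the nucleus and assembled on mitochondrial ribosomal RNA, rose in 28 of 70 tested genes and fell in none, with a positive log2 fold change in 67 and a median of 0.32. MRPL23 was higher in otic cells by 0.58 (SE 0.10, edgeR adjusted p = 0.000579) and MRPL44 by 1.16 (SE 0.19, edgeR adjusted p = 0.000597). Of 78 ribosome biogenesis factors 32 rose and none fell, with a median of 0.28, among them NCL (nucleolin, 0.63) and RRP12 (a factor for export of pre-ribosomes, 0.73). These counts are to be read beside 12.1% of all genes called higher. Within the 4 shallower libraries 8 mitochondrial ribosomal protein genes and 12 biogenesis genes were called, beside 7.28% of all genes. Within the 4 deeper libraries 20 genes of each list were called, beside 6.92% of all genes. Without Lmx1aE1-EGFP+ library 3 the mitochondrial count was 18, beside 9.13% of all genes.

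EEF1A1, which delivers aminoacyl-tRNA to the ribosome, had 4794, 4597, 4539 and 3952 CPM in Lmx1aE1-EGFP+ and 2984, 3054, 3208 and 2779 CPM in Sox3U3-EGFP+ libraries. Its groups did not overlap (log2 fold change 0.57, SE 0.08, edgeR adjusted p = 0.000115). EEF1A1 is also on a list of other mRNAs with a TOP tract. Of 17 tested genes on that list 11 rose and none fell, beside 12.1% and 11.3% of all genes. Their median log2 fold change was 0.36. Of 6 elongation factors 3 rose, including EIF5A2 (0.79, edgeR adjusted p = 0.0029). Of 31 initiation factors 7 rose, beside 12.1% of all genes, among them EIF3F (1.20) and the scaffold EIF4G1 (0.58), and 1 fell, EIF5 (-0.28, edgeR adjusted p = 0.0332), which was not called in DESeq2 (adjusted p = 0.0721) or without any 1 of 6 libraries.

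Among 15 tested regulators of ribosomal protein synthesis 4 rose and none fell, beside 12.1% and 11.3% of all genes. MYC had 33.8, 23.7, 21.5 and 14.9 CPM in Lmx1aE1-EGFP+ libraries and 8.69, 11.3, 5.35 and 9.19 CPM in Sox3U3-EGFP+ libraries, so that every otic library was above every epibranchial one (log2 fold change 1.42, SE 0.26, edgeR adjusted p = 0.000855). The related MYCL and MYCN had log2 fold changes of 1.03 (edgeR adjusted p = 0.000529) and 0.63 (edgeR adjusted p = 0.0167), the latter lost without Lmx1aE1-EGFP+ library 1 or 3 and within either depth class. LARP1 was higher by 0.71 (SE 0.13, edgeR adjusted p = 0.000785). The kinase MTOR and its substrate RPS6KB1, which phosphorylates RPS6, had log2 fold changes of -0.06 and -0.08 and were not called. Of the 13 protein genes of the mitochondrial genome 2 fell, a share near the 11.3% of all genes. They were MT-CO1 (-0.30, edgeR adjusted p = 0.0122) and COX3 (-0.38, edgeR adjusted p = 0.0278), and neither was called within the deeper libraries alone. MT-CO1 was not called without Lmx1aE1-EGFP+ library 2 (adjusted p = 0.0703), nor COX3 without any 1 of 6 libraries.

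**Figure D5:**
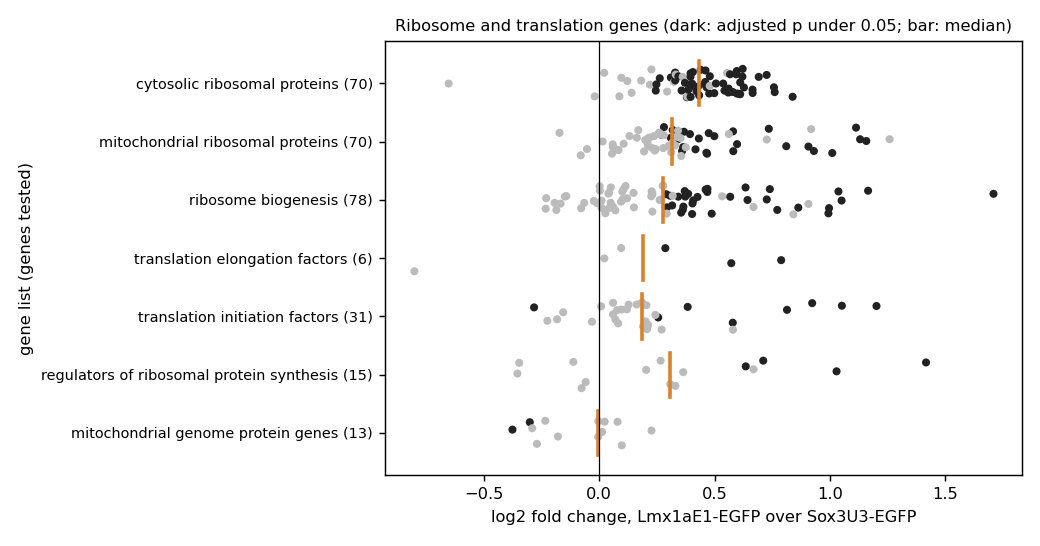
Log2 fold change (Lmx1aE1-EGFP over Sox3U3-EGFP) of the cytosolic ribosomal protein genes and of 6 other lists of genes (number of genes tested in brackets); dark points have an edgeR adjusted p under 0.05 and orange bars are medians. The median of the cytosolic genes lies at 0.43, above the medians of the mitochondrial ribosomal proteins (0.32) and ribosome biogenesis factors (0.28). The list of other mRNAs with a TOP tract (median 0.36) is not shown.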

How the data were processed

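Raw read counts per Ensembl gene were deposited by the authors for all 8 libraries in 1 table, not normalized. The study's methods name the NF-core RNAseq pipeline with STAR on GalGal6, and the submitters' processing notes name Trim Galore and featureCounts. The strand setting and the treatment of reads with several matches are not given in the sources used here. Sequences and transcript lengths were not used here. Levels were therefore not compared between genes, apart from the CPM printed for RPL26 beside RPL26L1, without regard to length. Ratios of paralog pairs were set only against the same ratio in the other group. The rule naming 3 genes by level per length was not applied.

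Counts were filtered with filterByExpr, scaled by TMM and fitted in edgeR 4.0.16 (R 4.3.3; glmQLFit with robust estimation, glmQLFTest), with group as the only term and Benjamini-Hochberg adjustment over 16861 genes. The standard error is the size of the log2 fold change over the square root of F. CPM use TMM-scaled totals, and log2 CPM a prior count of 2. Each number names 1 library per group, and methods describe them as replicates, so p-values measure the spread between these libraries. The self-test on simulated counts was run with the same fit. Genes named are the 6 members with the highest and the 6 with the lowest log2 fold change, the paralogs, stalk, RPL5, RPL11 and RPL38, the genes of smallest p in each list, and every called regulator. Others (RPS26, RPL26, RPL22, RPL7, RPS27A, RPL3, RPS10, RPL10A, MTOR, RPS6KB1, MDM2, the Z-linked members and the markers) were named after their values were seen. The members, the gene lists and the tests were chosen with earlier results of these data known. Alternatives were DESeq2 1.42.0, limma-voom (limma 3.58.1), other scalings, filters and thresholds, a replicate or depth block, thinned counts, 1 depth class, and each library left out. The members were matched by symbol to the RefSeq gene table of GRCg7b (69 of 70 matched).

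Other lists of markers moved as follows (higher in Lmx1aE1-EGFP+, higher in Sox3U3-EGFP+, of those tested): mesenchyme 5 and 0 of 7, blood 0 and 0 of 4, neural tube 1 and 0 of 4, pharyngeal endoderm 0 and 2 of 5, and endothelium 0 and 1 of 6.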

Additional observations from a re-analysis of the deposited data

Results flagged for a closer look

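In 74 groups of 4 libraries examined, 6 held a library whose distance from the nearest other, as a share of the group's range, passed the 95% critical value of Dixon's test. By chance about 3.7 would (1 in 20). RPLP1 was at 1045 CPM in Sox3U3-EGFP+ library 2, with the nearest other at 1416 CPM (ratio 0.847). RPL8 was low in the same library, at 2143 CPM with the nearest other at 2499 CPM (ratio 0.880). RPL4 was at 3759 CPM in Lmx1aE1-EGFP+ library 4, with the nearest other at 3401 CPM (ratio 0.878). RPL3L stood apart in both groups, at 1.51 CPM in Sox3U3-EGFP+ library 4 against 2.31 CPM (ratio 0.945) and at 2.12 CPM in Lmx1aE1-EGFP+ library 2 against 1.20 CPM (ratio 0.924). EIF5A2 was at 474 CPM in Sox3U3-EGFP+ library 4 against 814 CPM (ratio 0.885). None of these libraries was set aside.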

How the results depend on the processing

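In the edgeR test 53 members were higher in Lmx1aE1-EGFP+ cells, beside 12.1% of all genes. The count was 52 with DESeq2 (beside 14.7% of all genes), 57 with limma-voom (15.3%) and 45 with library size only (10.2%). It was 35 at an adjusted p under 0.01, for which the share of all genes was not computed. Within the 4 libraries below 15000000 counts it was 30 (beside 7.28% of all genes) and within the 4 above 36 (6.92%), where fewer libraries entered. With the scale set to the summed ribosomal protein counts 4 members were higher and 2 lower, beside 2.94% and 27.9% of all genes. The log2 fold changes then had a median of 0.066. The members had a median pairwise correlation of 0.137, since that scale removes what the members share. Without 1 library the count ranged from 38 (beside 8.59% of all genes) to 58 (beside 10.7%), and the median log2 fold change from 0.35 to 0.54. The difference in share then ranged from 1.18 to 1.72 percentage points and the pairwise correlation from 0.783 to 0.916.

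With the replicate number as a block (replicate block) 48 members were higher and 0 lower, beside 9.19% and 8.68% of all genes. The median was 0.44, and 18 mitochondrial ribosomal protein genes were higher. Deviations of same-numbered libraries correlated at -0.11, -0.23, 0.05 and -0.16. With 4 libraries per group, these values cannot decide whether same-numbered libraries were handled together. With the depth class as a block 45 mitochondrial ribosomal protein genes were higher, beside 15.1% of all genes. Library size as the only scaling gave 10.2% of all genes higher and 13.3% lower, against 12.1% and 11.3%.

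The sign of RPLP0 changed with library size only (-0.030), with at least 10 counts in every library (-0.012), in thinned counts (-0.013), above 15000000 counts (-0.024) and on the ribosomal protein scale (-0.36), and without 1 library it ranged from -0.0073 to 0.061. That of RPL4 changed with the members left out of the scaling (0.0012), without a filter (0.015) and above 15000000 counts (0.011), and ranged from -0.064 to 0.012 without 1 library. On the ribosomal protein scale RPLP1 (-0.24), RPL8 (-0.28), RPL7L1 (-0.29), RPS27L (-0.032), RPL5 (-0.036) and FAU (-0.028) also turned negative. Of the values of named genes under all alternatives 641 kept direction and side of the threshold, 73 lost the call, 2 gained it and 18 changed sign, and the causes were not tested.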
